A study of Bubalus bubalis with 36 samples.

Results

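The miR-15, miR-16, miR-195 and miR-497 microRNAs (miRNAs) were followed across 6 adipose depots of the water buffalo. They were taken by name, as every feature of the deposited count table called miR-15a, miR-15b, miR-16a, miR-16b, miR-195 or miR-497 under its bovine (bta) name, with or without an arm suffix. This gave 6 of 1682 features, 1 for each name and none with a suffix, so the strand of the hairpin is not stated in the name. Of the 1682 features, 695 carry miRNA names and 987 are candidate loci with an identifier only. Adipose tissue of 6 buffaloes was sampled at 6 sites each, which gave 36 small RNA libraries, 6 per depot and 18 per class. Subcutaneous fat was represented by BSAT from the back, SSAT from the sternum and IAT from the inguinal region. Visceral fat was represented by OAT from the omentum, PCAT from around the heart (pericardial) and PRAT from around the kidney (perirenal). All animals had been weaned at 3 months, were fattened from 15 months and were slaughtered at 20 months of age, and the labels give no genotype, breed or treatment that separates them. Libraries are named below by depot and animal, so that SSAT1 is the sternal fat of animal 1.

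miRNAs are short RNAs that guide Argonaute proteins to messenger RNAs and lower their output, and the bases near the 5′ end, the seed, set most of the targets. The members of this family share a seed and are best known as brakes on the cell cycle: their targets include D-type and E-type cyclins, cyclin-dependent kinases, the kinases CHEK1 and WEE1 and the survival factor BCL2. In mammals the family is made from separate loci. miR-15a is transcribed together with a miR-16 copy within DLEU2, miR-15b with the other miR-16 copy within SMC4, and miR-195 with miR-497. miR-15 and miR-16 are abundant in blood cells, where they were first studied in leukaemia, and miR-195 and miR-497 have been studied in postnatal heart, muscle and fat precursor cells. No mature sequence is printed here, and miR-16a and miR-16b are near-identical copies, so reads could be divided between them in counting and the values of each are uncertain.

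Library totals ran from 9484589 to 13920998 counts, with a median of 12525362, and all 6 members were among the 667 features that passed the filter on low counts. The members together held 0.195% to 1.2% of the counts of a library, with a median of 0.328%. Their lowest counts were 33 for miR-16b and 114 for miR-15a, and every other member had at least 1898 counts in every library, so counting error matters mainly for miR-16b. Levels are given as CPM, counts brought to a common library total after scaling for differences in library makeup. Mature miRNAs hardly differ in length, so CPM of different members can be set side by side, although capture of different sequences can differ and was not measured. Libraries of tissue do not separate fewer cells of a type from less RNA per cell. A list of miRNAs abundant in fat cells summed to 85155 to 218319 CPM in every library, over 23 listed features of which 22 were tested. They are not particular to fat cells, since miR-143 is also on the list for smooth muscle and stroma.

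The family was uneven in level. Averaged over all 36 libraries, miR-15b stood at 1806 ± 1888 CPM (SD), miR-195 at 1242 ± 1536, miR-497 at 800 ± 282, miR-16a at 371 ± 154, miR-15a at 94.6 ± 74.0 and miR-16b at 9.55 ± 5.43. The most abundant member was not the same in every library: miR-15b led in 17 libraries, miR-195 in 13 and miR-497 in 6. Of the libraries led by miR-15b 11 were visceral, and of those led by miR-497 5 were subcutaneous. miR-15b made up 11.6% (IAT5) to 76.5% (IAT6) of the family's counts, miR-195 6.59% (OAT6) to 73.8% (SSAT1) and miR-497 4.75% (SSAT1) to 46.3% (IAT5). miR-16a, miR-15a and miR-16b did not lead in any library.

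**Figure D1:**
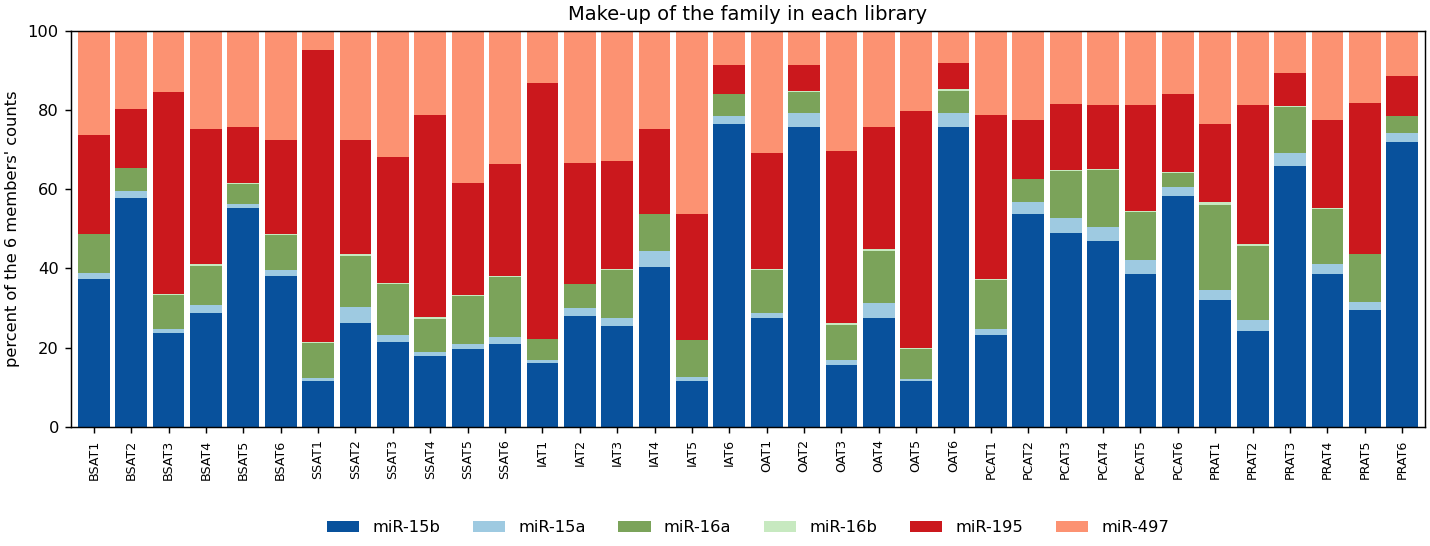
Makeup of the family in each library. Each bar is 1 library, named by depot and animal, and its colours give the percent of the summed counts of the 6 members that belongs to each member. miR-15b fills 76.5% of the bar of IAT6 and 11.6% of that of IAT5, and miR-195 fills 73.8% of SSAT1.

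The members also differed in how steady they were. miR-497 spanned 401 to 1586 CPM, a 3.95-fold range over all 36 libraries, and its SD on the log2 CPM scale, 0.50, was larger than that of only 7.65% of the 667 tested features. miR-16a had an SD of 0.52, larger than 9.75% of them. miR-15b spanned 237 to 7320 CPM, a 30.9-fold range, and its SD of 1.27 exceeded that of 79.3% of tested features. The same order held among abundant features: of the 155 that averaged at least 100 CPM, 83.9% had a smaller SD than miR-15b, 68.4% a smaller SD than miR-195, 25.8% than miR-16a and 21.9% than miR-497.

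**Figure D2:**
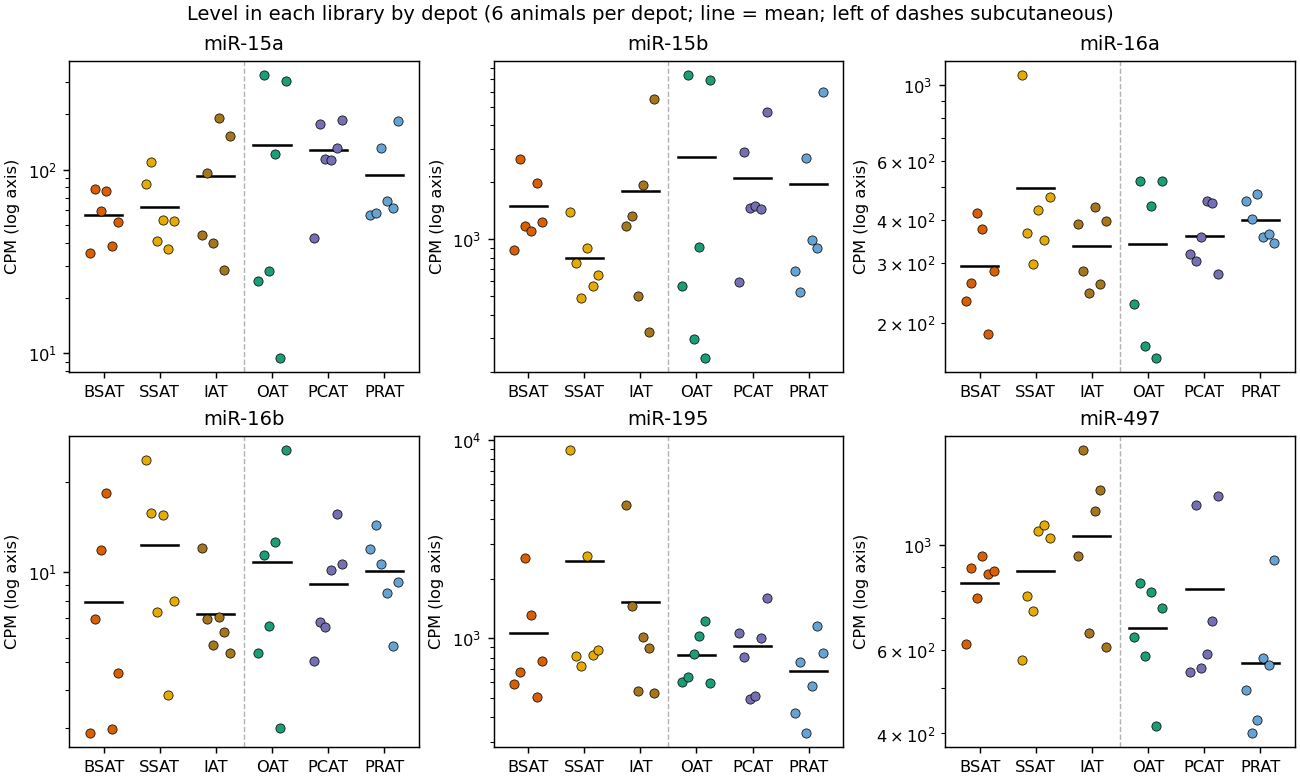
Level of each member in each library. Points are libraries in CPM on a log axis, grouped by depot, the black lines are depot means, and depots left of the dashed line are subcutaneous. miR-497 stays between 401 and 1586 CPM, while miR-195 has single high libraries among the subcutaneous depots and miR-15b has visceral libraries at 4700 to 7320 CPM.

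The study's design sets subcutaneous against visceral fat. miR-195 and miR-497, the pair made from one locus, were called higher in subcutaneous fat with the main settings. Only miR-497 kept its call with the animal as a block. The 4 members of the miR-15 and miR-16 loci did not pass the test. A call is an adjusted p under 0.05 in edgeR's quasi-likelihood test over all 667 features with Benjamini-Hochberg adjustment. By this rule 110 features were called, 16.5% of those tested, and 48 of them, 7.2%, were higher in subcutaneous fat. Of the 6 members 2 were called, both higher, and 3 had an unadjusted p under 0.05. The median log2 difference was −0.08 over the members and −0.09 over all tested features.

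miR-195 ranged from 508 to 8877 CPM in subcutaneous libraries (median 846) and from 334 to 1600 CPM in visceral ones (median 782). The groups overlapped in most libraries. The 4 libraries above every visceral one were SSAT1 (8877 CPM), IAT1 (4702), SSAT4 (2597) and BSAT3 (2545), and 2 of them came from animal 1. The fitted log2 difference was 0.99 ± 0.33 (SE, 95% interval 0.32 to 1.65, edgeR adjusted p = 0.0356), and 4 of 6 animals were higher, with differences per animal from −0.65 to 2.17. The call rested on those libraries. Without SSAT1 the difference was 0.62 (adjusted p = 0.101), without IAT1 0.75 (adjusted p = 0.0807), without BSAT3 0.85 (adjusted p = 0.0593), without SSAT4 0.97 (adjusted p = 0.052), and without all libraries of animal 1 0.38 (adjusted p = 0.342). With the animal as a block, which compares depots within an animal, it was 0.73 (adjusted p = 0.128) and was not called.

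miR-497 ranged from 572 to 1586 CPM in subcutaneous libraries (median 888) and from 401 to 1271 CPM in visceral ones (median 586). Here the shift was spread over many libraries: 7 of 18 visceral libraries (OAT5, PCAT1, PCAT3, PRAT1, PRAT2, PRAT3 and PRAT5) lay below every subcutaneous one, and 2 subcutaneous libraries (IAT2 and IAT5) above every visceral one. The fitted log2 difference was 0.44 ± 0.16 (95% interval 0.13 to 0.76, edgeR adjusted p = 0.0451), and 5 of 6 animals were higher. With the animal as a block the call remained, at 0.46 (adjusted p = 0.026). The adjusted p lay close to the threshold, and leaving out any of 13 single libraries ended the call with differences of 0.40 to 0.45, of which the lowest was without OAT5. Without animals 1, 3, 4 or 5 in turn it was not called either, at 0.36 to 0.50.

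Both calls depended on how libraries were scaled. Scaling by library totals alone moved the median of all tested features to −0.29, and there miR-195 differed by 0.79 (adjusted p = 0.0757) and miR-497 by 0.22 (adjusted p = 0.304). Set against that median, miR-195 stood 1.08 above it under both scalings, and miR-497 0.53 above it with the main scaling and 0.51 with totals alone. The split of called features was 43.6% higher with the main scaling and 18.8% with totals alone. A letter without a stated meaning, A or B, ends each library's name. Visceral fat gave 7 of the 8 libraries with an A. Within the 28 letter B libraries miR-195 differed by 0.91 (adjusted p = 0.222) and miR-497 by 0.50 (adjusted p = 0.12), neither called, and with the letter as a covariate by 0.97 (adjusted p = 0.0778) and 0.48 (adjusted p = 0.0649). In limma on log2(RPM + 1), which averages log values, miR-195 differed by 0.39 (adjusted p = 0.362) and miR-497 by 0.26 (adjusted p = 0.243). Within letter A only 1 library was subcutaneous, which gives no value. As a term of the model the letter was called for none of the members (smallest adjusted p 0.116, miR-16b) and for 7 of 667 features by edgeR.

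**Figure D3:**
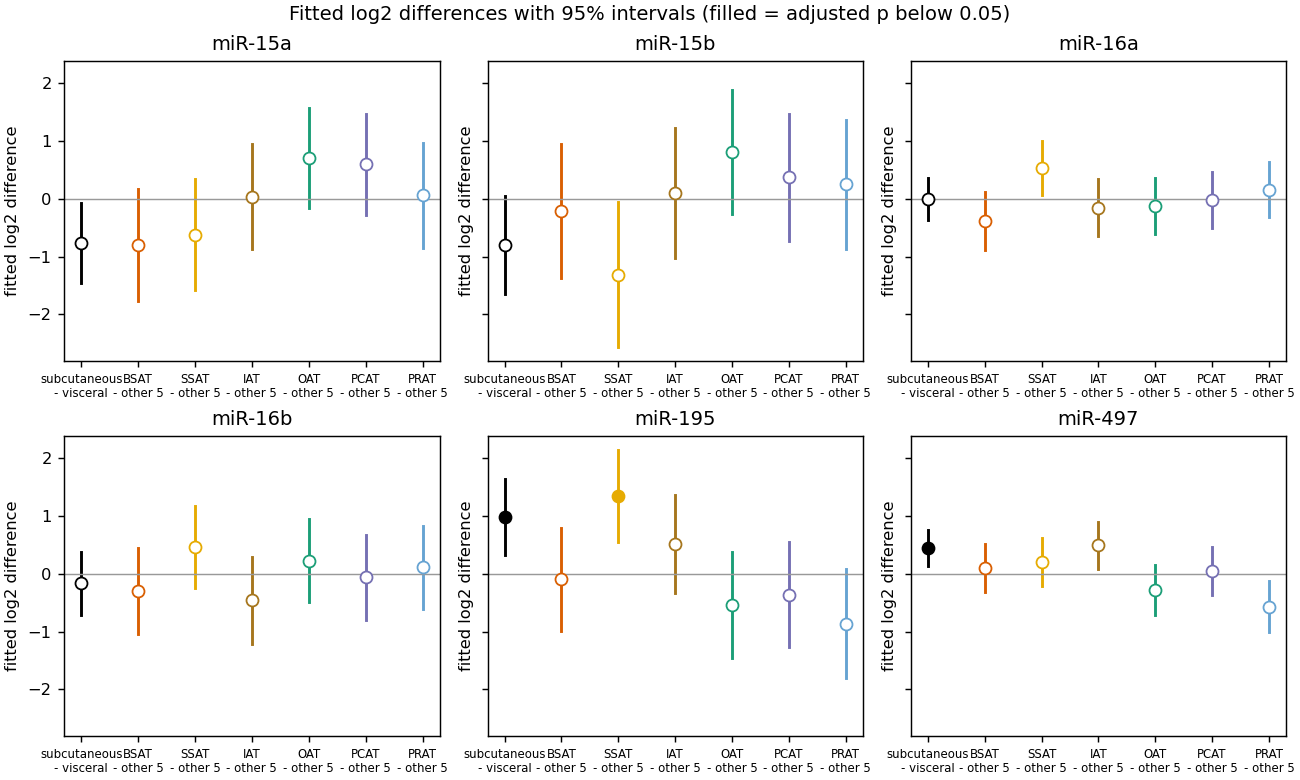
Fitted log2 differences of each member, with 95% intervals. The black point is subcutaneous minus visceral fat, the coloured points are each depot minus the mean of the other 5, and filled points have an adjusted p under 0.05. Only miR-195 (class and SSAT) and miR-497 (class) have filled points.

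The miR-15 members pointed the other way and were not called with the main scaling, although miR-15a was called with library totals alone. miR-15a, which shares its transcript with a miR-16 copy, ranged from 28.5 to 191 CPM (median 52.8) in subcutaneous and from 9.46 to 327 CPM (median 114) in visceral libraries. Its groups overlapped on both sides: OAT2 and OAT6 held the highest values of all libraries and OAT1, OAT3 and OAT5 the lowest. The log2 difference was −0.77 ± 0.34 (95% interval −1.45 to −0.08, edgeR adjusted p = 0.115), and 5 of 6 animals were lower in subcutaneous fat. With library totals alone it was −1.003 (adjusted p = 0.0433) and without OAT5, its lowest library, −0.85 (adjusted p = 0.0484), both called. miR-15b ranged from 325 to 5509 CPM (median 1136) in subcutaneous and from 237 to 7320 CPM (median 1218) in visceral libraries, with a log2 difference of −0.79 ± 0.42 (95% interval −1.64 to 0.06, adjusted p = 0.192) and 3 animals in each direction. The medians of miR-15b were close, and the mean difference came with a few high visceral libraries, OAT2, OAT6 and PRAT6, which lay above every subcutaneous one.

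Neither miR-16 copy was called between the classes. miR-16a ranged from 185 to 1071 CPM (median 358) in subcutaneous and from 158 to 522 CPM (median 362) in visceral libraries, a log2 difference of 0.00 ± 0.18 (95% interval −0.36 to 0.36, edgeR adjusted p = 0.994). Its interval leaves room for differences of that size in either direction. miR-16b ranged from 2.89 to 23.7 CPM (median 6.99) in subcutaneous and from 2.99 to 25.5 CPM (median 9.71) in visceral libraries, and its log2 difference was −0.16 ± 0.27 (95% interval −0.71 to 0.39, adjusted p = 0.723). Summing the copies removes any division of reads between them. It does not touch the counts of the other members, so miR-195 stayed at 0.99 (edgeR adjusted p = 0.0354) and miR-497 at 0.45 (adjusted p = 0.045). Those values say nothing about the division of reads. The value of the summed copies themselves is not given here, so the miR-16 values remain uncertain.

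Across single depots only sternal fat gave a call. miR-195 ranged there from 729 to 8877 CPM (median 846), and its log2 difference from the mean of the other 5 depots was 1.35 ± 0.39 (95% interval 0.55 to 2.15, edgeR adjusted p = 0.0306), higher in 4 of 6 animals. In that comparison 62 of 667 features were called, 9.3%, and 1 of 6 members. That background was not steady: 26 features were called without SSAT1, 22 without SSAT4 and 16 without animal 4. The value followed SSAT1: without that library the difference was 0.36 (adjusted p = 0.656), without SSAT4 1.33 (adjusted p = 0.0825) and with the animal as a block 0.93 (adjusted p = 0.173). The median of SSAT, 846 CPM, lay within the range of the depot medians, 668 CPM in PRAT to 951 CPM in IAT.

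Other members of sternal fat did not pass. miR-15b had its lowest depot mean there, 791 ± 330 CPM (SD, n = 6), with a log2 difference of −1.32 ± 0.62 (edgeR adjusted p = 0.187) and 5 of 6 animals lower. miR-16a had its highest depot mean there, 497 ± 287 CPM, with SSAT1 at 1071 and the other sternal libraries at 297 to 470 CPM, and a log2 difference of 0.53 ± 0.23 (adjusted p = 0.146). In inguinal fat, where 2 features were called (0.3%), miR-497 stood at 1046 ± 383 CPM, a log2 difference of 0.50 ± 0.20 (adjusted p = 0.521). In perirenal fat, where 21 were called (3.15%), miR-497 stood at 564 ± 192 CPM, a log2 difference of −0.57 ± 0.22 (adjusted p = 0.192) with 5 of 6 animals lower. No member was called in back fat (15 features called, 2.25%), omental fat (10 called, 1.5%) or pericardial fat (61 called, 9.15%), and none had an unadjusted p under 0.05 there or was called by DESeq2. By mean, miR-15a was lowest in back fat, at 56.8 ± 18.5 CPM, and highest in omental fat, at 136 ± 145 CPM, where 3 libraries held 9.46 to 28.0 CPM and 3 held 122 to 327 CPM.

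The order of the depots was not resolved for any member. By mean CPM miR-195 went from SSAT (2452 ± 3228 CPM, SD, n = 6) through IAT (1521 ± 1595), BSAT (1065 ± 778), PCAT (912 ± 413) and OAT (822 ± 260) to PRAT (682 ± 303). miR-497 went from IAT (1046 ± 383) through SSAT (882 ± 219), BSAT (831 ± 119), PCAT (809 ± 340) and OAT (667 ± 155) to PRAT (564 ± 192). In both orders the 3 subcutaneous depots came before the 3 visceral ones, and for miR-497 this held by median too. The medians of miR-195 mixed the classes. They went from IAT (951 CPM) through PCAT (902), SSAT (846), OAT (739) and BSAT (721) to PRAT (668). By mean, miR-15b went from OAT (2702 ± 3418) through PCAT (2096 ± 1476), PRAT (1954 ± 2109), IAT (1794 ± 1910) and BSAT (1498 ± 668) to SSAT (791 ± 330). miR-15a went from OAT and PCAT (127 ± 51.9) through PRAT (93.3 ± 52.9), IAT (91.8 ± 67.0) and SSAT (62.8 ± 28.4) to BSAT. Here the visceral depots came first by mean, but not by median. The medians of miR-15b were 1471 CPM in PCAT, 1253 in IAT, 1199 in BSAT, 949 in PRAT, 738 in OAT and 696 in SSAT. For miR-15a the median of IAT (69.9 CPM) lay above that of PRAT (64.8). By mean, miR-16a went from SSAT through PRAT (401 ± 55.8), PCAT (360 ± 75.7), OAT (340 ± 174) and IAT (335 ± 81.9) to BSAT (293 ± 88.8). miR-16b went from SSAT (12.3 ± 7.28) through OAT (10.7 ± 8.10), PRAT, PCAT (9.10 ± 3.84) and BSAT (7.92 ± 6.09) to IAT (7.21 ± 2.44), and neither miR-16 copy kept the classes apart.

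No neighbours in any of the orders by mean differed by edgeR, with adjusted p-values of 0.59 to 0.992. Of the 15 pairs of depots none was called for any member, against 210 of 10005 feature-pair combinations over the whole table, 2.1%. At an unadjusted p under 0.05, 5 pairs passed for miR-195, 4 for miR-497, 1 each for miR-15a, miR-15b and miR-16a and 0 for miR-16b. DESeq2 called 2 combinations of member and pair, and no setting called more than 530 combinations over all features. The nearest in edgeR were miR-497 in IAT over PRAT, a log2 difference of 0.89 (edgeR adjusted p = 0.0737), and miR-195 in SSAT over PRAT, 1.85 (adjusted p = 0.0824). With the animal as a block the first of these was called (0.90, adjusted p = 0.0407), and the second was 1.34 (adjusted p = 0.246). In the F test over all 6 depots 93 features were called, 13.9%, and none of the 6 members: miR-195 had an adjusted p of 0.0975 and miR-497 of 0.14. At an unadjusted p under 0.05 these were the 2 members that passed. DESeq2 called the same 2 (adjusted p = 0.0133 and 0.035), among 170 of 667 features called. Within the subcutaneous depots 4 features were called, 0.6%, and within the visceral depots 13, 1.95%, with no member in either by edgeR or DESeq2. At an unadjusted p under 0.05, 1 member passed within the subcutaneous depots, miR-16a, and none within the visceral depots.

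The balance within the family was compared inside each library, where the scaling of libraries cancels. The counts of miR-195 and miR-497 summed, over those of the miR-15 and miR-16 members summed, gave a mean log2 ratio of 0.48 in subcutaneous and −0.42 in visceral fat. The difference was 0.90 ± 0.46 (SD over 6 animals) and was positive in 6 of 6 animals, from 0.02 to 1.30. In the exact two-sided sign-flip permutation test over animals this gave p = 0.0312, the smallest value 6 animals allow, and 0.125 after adjustment over the 4 ratios tested. The depot means fell from 1.02 in SSAT through 0.40 in IAT, 0.01 in BSAT, −0.10 in OAT and −0.49 in PCAT to −0.69 in PRAT. Omental fat held both extremes of all libraries, 2.01 in OAT5 and −2.53 in OAT6, so its mean describes few of its libraries. The ratio was above 1 in linear terms in 21 of 36 libraries.

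No ratio passed the test after adjustment, and the 3 between near relatives did not pass before it either. miR-195 over miR-497, which are cut from one primary transcript, had a mean log2 ratio of 0.35 in subcutaneous and 0.21 in visceral fat, a difference of 0.14 ± 1.14 (SD over 6 animals) with 3 animals in each direction (exact permutation p = 0.656, adjusted 0.656). In single libraries this ratio was not constant. Its median was 0.93 on the linear scale, and it reached 15.5 in SSAT1, 4.97 in IAT1, 3.30 in BSAT3, 2.96 in OAT5 and 2.42 in SSAT4, while its lowest value was 0.584 in BSAT5. Without animal 1 the mean difference in log2 was −0.20, so its sign rested on that animal. miR-16a over miR-16b differed by 0.19 ± 0.57 (exact permutation p = 0.562, adjusted 0.656), with miR-16a 20.4 to 88.5 times as frequent. miR-15a over miR-15b differed by −0.15 ± 0.29 (exact permutation p = 0.281, adjusted 0.562), with miR-15b more frequent in every library.

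**Figure D4:**
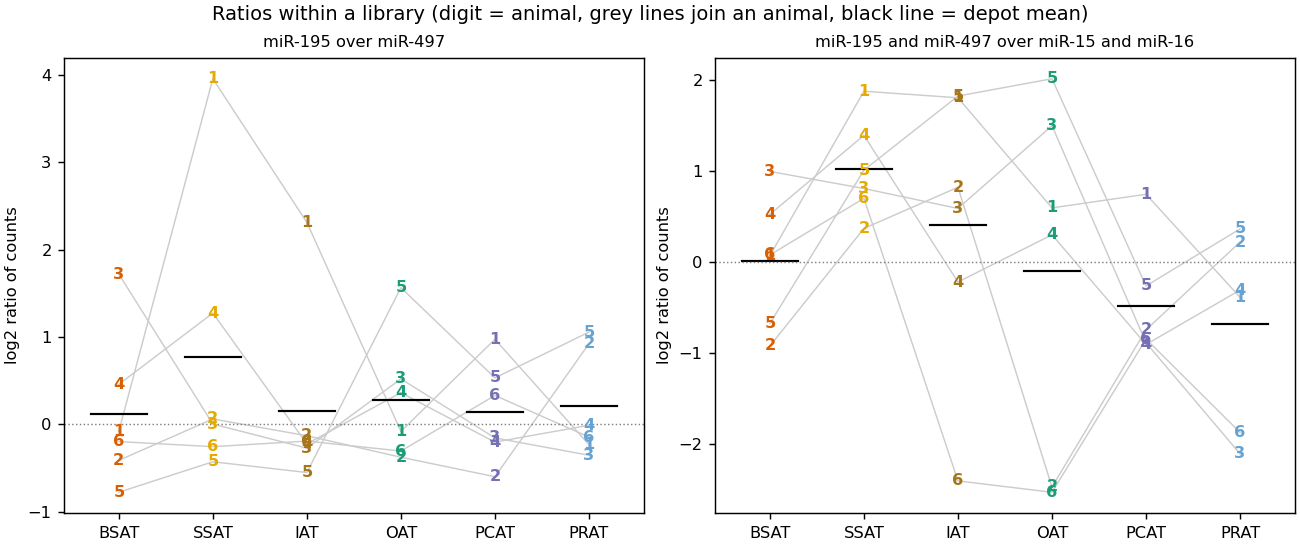
Log2 ratios of counts within each library, by depot. Digits are animals, grey lines join the libraries of an animal, and black lines are depot means. Left, miR-195 over miR-497, with SSAT1 and IAT1 far above the rest of their depots; right, miR-195 and miR-497 summed over the miR-15 and miR-16 members summed, with depot means from 1.02 in SSAT to −0.69 in PRAT.

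The miR-15 members also varied between animals. miR-15b averaged 4152 ± 2597 CPM (SD over 6 depots) in animal 6 and 2576 ± 2519 in animal 2, against 881 ± 339 to 1219 ± 405 CPM in the other 4 animals. Animal 6 held 6879 CPM in OAT, 5958 in PRAT, 5509 in IAT and 4700 in PCAT, but 1225 in BSAT and 645 in SSAT. miR-15a followed the same order at the top, with 155 ± 94.9 CPM in animal 6 and 141 ± 99.5 in animal 2, and its lowest mean was 47.8 ± 20.4 CPM in animal 1. In the edgeR F test over animals, with depot in the model, 78 features were called, 11.7%, and none of the 6 members. The adjusted p was 0.0574 for miR-15b and 0.0733 for miR-15a, which were the 2 members with an unadjusted p under 0.05, and 0.199 to 0.624 for the others. Over depots the adjusted p was 0.511 for miR-15b and 0.411 for miR-15a, and whether animals differed more than depots was not tested. DESeq2 called these 2 (adjusted p = 0.0168 for miR-15b and 0.0377 for miR-15a), among 176 of 667 features called. Without SSAT1 edgeR called both too, and without animal 2 or any 1 of 6 other libraries it called miR-15b alone.

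miR-195 was high in single libraries of animal 1, which averaged 2709 ± 3432 CPM with 8877 in SSAT and 4702 in IAT, and 422 to 1062 CPM in its other 4 depots. The remaining animals averaged 857 ± 298 to 1171 ± 760 CPM. miR-497 averaged 618 ± 126 CPM in animal 3 to 951 ± 405 CPM in animal 2.

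Within the family the members moved in groups over the 36 libraries. These correlations of log2 CPM are descriptions, since the libraries share animals and are not independent. The 2 libraries called farthest out are those farthest from the median of the member named first. miR-15a and miR-15b, from separate loci, had Pearson's r = 0.86 (Spearman's rho 0.83) over 36 libraries, 0.88 after depot means were removed and 0.82 without the 2 libraries farthest out. miR-16a and miR-16b, whose reads may be divided between near-identical copies, had r = 0.74 (rho 0.72). miR-15a had r = 0.58 with miR-16a and 0.54 with miR-16b. miR-195 and miR-497 had r = 0.27 (rho 0.39), although they come from one transcript. miR-16a and miR-195 had r = 0.76 within the 18 subcutaneous libraries and −0.45 within the 18 visceral ones, and over all 36 r was 0.33 and 0.09 without the 2 libraries farthest out.

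The features most like each member were sought among the 383 tested features with miRNA names outside the family, by Pearson's r of log2 CPM over 36 libraries. For miR-195 these were miR-152 (r = 0.90, rho 0.75), miR-148c (r = 0.90, rho 0.74) and miR-186 (r = 0.80, rho 0.56). miR-152 and miR-148c bear names of one miRNA family. The libraries high in miR-195 were high in them too: miR-152 stood at 2474 CPM in SSAT1, 1213 in IAT1, 1091 in SSAT4 and 747 in BSAT3, and at most 415 CPM, in OAT5, in any other library. miR-148c stood at 831, 142, 229 and 284 CPM in those libraries and at 79.8 CPM or less elsewhere. Without SSAT1 and IAT1, the 2 libraries farthest from the median of miR-195, r was 0.81 for miR-152 and 0.84 for miR-148c. SSAT4 and BSAT3 stayed in, so these values do not show the likeness outside the high libraries.

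For miR-15a the nearest were miR-142-5p (r = 0.83), miR-146a (r = 0.78) and miR-221 (r = 0.76), and for miR-15b miR-142-5p (r = 0.78), miR-155 (r = 0.74) and miR-2889 (r = 0.73). miR-142, miR-146a and miR-155 are known for high levels in leukocytes. miR-142-5p stood at 86.2 CPM in OAT2, 78.7 in OAT6, 44.6 in IAT6 and 33.9 in PRAT6, where miR-15b was between 5509 and 7320 CPM, and at 53.3 CPM in PRAT3, where miR-15b was 2664. In OAT5, where miR-15a and miR-15b had their lowest values, it stood at 0.747 CPM. After depot means were removed, r with miR-142-5p was 0.85 for miR-15a and 0.81 for miR-15b. Most of these correlations were weaker within subcutaneous than within visceral libraries. For miR-15a r was 0.609 against 0.895 with miR-142-5p, 0.374 against 0.881 with miR-146a and 0.51 against 0.891 with miR-221. For miR-15b it was 0.659 against 0.847 with miR-142-5p and 0.579 against 0.786 with miR-155, but 0.768 against 0.729 with miR-2889. For miR-16a the nearest were miR-374b (r = 0.59), let-7f (0.59) and miR-2285bf (0.57). Without the 2 libraries farthest out the first and the last fell to 0.28, and let-7f to 0.54. For miR-16b they were miR-361 (0.60), miR-30b-5p (0.59) and miR-2285bf (0.59), and for miR-497 miR-199a-5p (0.64), miR-3604 (0.63) and miR-199a-3p (0.62), where the miR-199a arms are known from stromal cells.

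**Figure D5:**
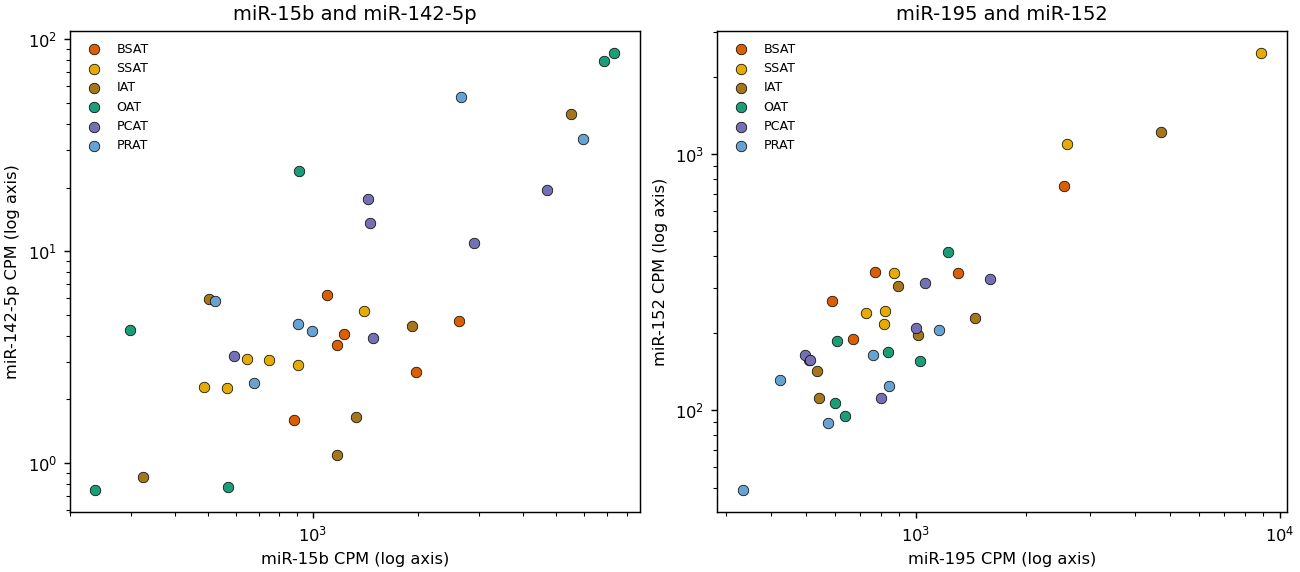
Members against the miRNA most like them. Points are the 36 libraries, coloured by depot, with both axes in CPM on log scales. Left, miR-15b and miR-142-5p (r = 0.78); right, miR-195 and miR-152 (r = 0.90), where SSAT1, IAT1, SSAT4 and BSAT3 lie apart at the upper right.

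Some markers of other cells differed between the classes. The sums of several lists, leukocytes and epithelium among them, were correlated with the miR-15 members. For scale, 110 of all 667 tested features were called between the classes, 16.5%, with 48 higher and 62 lower in subcutaneous fat. Of 7 leukocyte miRNAs 3 were lower in subcutaneous fat by edgeR: miR-142-3p (−2.51 ± 0.65, adjusted p = 0.00821), miR-142-5p (−1.93 ± 0.55, adjusted p = 0.0145) and miR-146a (−0.96 ± 0.33, adjusted p = 0.0436). miR-223, singled out after its values were seen, had a higher mean in subcutaneous (22.0 CPM) than in visceral libraries (14.8 CPM), was not called between the classes and was called higher in back fat against the other 5 depots. The summed level of the list ran from 1582 to 26062 CPM (median 4482) in subcutaneous and from 3078 to 47089 CPM (median 8309) in visceral libraries, and no member was at 0 throughout. The highest were OAT6 (47089), PRAT3 (26220), IAT6 (26062) and OAT2 (19851). Most of the sum there was miR-150, which was not called between the classes: 43382, 20876, 22250 and 11967 CPM in that order. In SSAT2, the lowest library, miR-155 (1022 CPM) exceeded miR-150 (507 CPM). The 3 called markers hardly entered the sum, with class means from 2.53 (miR-142-3p) to 33.1 CPM (miR-146a). By itself miR-150 had r = 0.51 with miR-15b and 0.42 with miR-15a. Over 36 libraries the summed level had r = 0.59 with miR-15b (rho 0.47), 0.53 with miR-15a, 0.39 with miR-16a, 0.33 with miR-16b, −0.27 with miR-195 and −0.26 with miR-497. The part of leukocytes in the levels of the family was not tested. All 5 tested epithelial miRNAs were lower in subcutaneous fat. The 6 listed summed to 3.81 to 79.0 CPM (median 6.47) there, against 5.17 to 2816 CPM (median 129) in visceral libraries. The summed level of the 5 tested had r = 0.54 with miR-15a, 0.42 with miR-15b and −0.23 with miR-195. The part of epithelial cells was not tested either. Other sums were correlated with miR-15b to a like degree. Its r was 0.44 with skeletal and cardiac muscle, 0.392 with cell cycle promoting miRNAs and −0.392 with endothelium. For miR-15a these were 0.264, 0.164 and −0.375.

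Among 7 miRNAs of smooth muscle and stroma 3 were higher in subcutaneous fat and none lower: miR-199b (1.47 ± 0.18, edgeR adjusted p = 2.67e-07), miR-214 (1.49 ± 0.42, adjusted p = 0.0145) and miR-199a-5p (0.83 ± 0.24, adjusted p = 0.0145). The summed level of the list was 22037 to 41230 CPM (median 30593) in subcutaneous and 8455 to 90561 CPM (median 26210) in visceral libraries, with r = 0.27 (rho 0.39) with miR-497 and 0.02 with miR-195, and its part was not tested. Of 3 red blood cell miRNAs edgeR and DESeq2 called 0, and 0 had an unadjusted p under 0.05. Of 2 endothelial ones edgeR called 0 and DESeq2 1, and 1 had an unadjusted p under 0.05. Of 6 skeletal and cardiac muscle miRNAs 1, miR-499, was lower (−0.73 ± 0.24, adjusted p = 0.0363). Of 22 miRNAs abundant in fat cells, miR-193a-5p (0.72 ± 0.24, adjusted p = 0.0399) and miR-103 were higher and miR-378b (−1.30 ± 0.45, adjusted p = 0.0436) lower. Over all tested features 16.5% were called, so the counts of the muscle and fat cell lists were near the general share.

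Other miRNAs that recognise the same or a shifted seed were set beside the family. Of the seed relatives 3 of 4 were tested and none was called in the class comparison: miR-424-3p stood at −0.68 ± 0.29 (edgeR adjusted p = 0.104), miR-424-5p at −0.47 ± 0.32 (adjusted p = 0.34) and miR-503-3p at −0.55 ± 0.51 (adjusted p = 0.509). The seed belongs to the 5p arms, so the 3p products stand here only for their precursors. At an unadjusted p under 0.05, 1 of the 3 passed by edgeR, and DESeq2 called 0. None was called in any single depot. Of the pair whose seed is shifted by a base, miR-103, known for its abundance in fat cells and its effect on insulin sensitivity, differed by 0.52 ± 0.14 in favour of subcutaneous fat (edgeR adjusted p = 0.0125), and miR-107 stood at 0.91 ± 0.69 (adjusted p = 0.393).

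Of 15 tested miRNAs known to restrain the cell cycle, 2 were higher and 2 lower in subcutaneous fat, with a median log2 difference of 0.07 against −0.09 over all features. let-7i (0.41 ± 0.12, edgeR adjusted p = 0.0173) and let-7c (0.49 ± 0.17, adjusted p = 0.0436), which repress RAS genes and HMGA2, were higher. miR-449a (−1.88 ± 0.40, adjusted p = 0.00143) and miR-449b (−1.66 ± 0.57, adjusted p = 0.0418), relatives of miR-34 found mainly in ciliated epithelia, were lower. Of 13 tested miRNAs known to promote the cell cycle, none was higher and 2 were lower, miR-17-5p (−1.36 ± 0.43, adjusted p = 0.0254) and miR-18b (−1.05 ± 0.35, adjusted p = 0.0363), with a median of −0.19. Over all 667 tested features 110 were called, 16.5%, with 48 higher and 62 lower. The count of the promoting list was near that share.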

How the data were processed

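The authors deposited read counts per feature and library, whole numbers that were not normalized, and RPM values, which bring each library to the same total. RPM equalled the count over the library total, with a largest difference of 4.79e-06. Per the labels' protocols, RNA was isolated with an RNeasy lipid tissue kit and libraries were built with a TruSeq RNA LT v2 kit. That is an mRNA kit, although the sample titles read miRNA-seq. DESeq2 1.24.0 is listed, per the submitters' processing notes, without its role. No aligner, miRNA caller or build is named there or in the labels, and so they count as not given in the sources used. A blank line held 0 counts and was left out, and 0 columns belonged to no sample. Every pair of libraries differed by more than sampling noise (smallest chi-square per degree of freedom 826).

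Counts were tested in R 4.3.3 with edgeR 4.0.16 (TMM factors 0.745 to 1.26, filterByExpr with a minimum count of 10, robust quasi-likelihood fit, 1 coefficient per depot, 30 residual degrees of freedom) on all 36 libraries, two-sided, with Benjamini-Hochberg adjustment over the features tested and a threshold of 0.05. Depot pairs were adjusted over features and all 15 pairs. The SE is the log2 difference over the square root of its F. TMM-scaled totals underlie CPM, and log2 CPM has a prior count of 2. Directions per animal come from mean log2 CPM. Ratios used counts + 1 and an exact sign-flip permutation over animals (Python 3.11.15).

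Each of the 6 animals was sampled at all depots, and its number therefore pairs libraries. Deviations from depot means had a mean correlation of 0.198 within animals (above 0.1 in 64 of 90 pairs) and −0.0392 across animals. All libraries otherwise entered as if independent, and nothing states whether an animal's libraries came from separate extractions.

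Every member was named. Added were the 3 miRNAs most like each member and, of the lists, seed relatives and members called between classes. The lists were seed relatives, offset seed, cell cycle restraining, cell cycle promoting, red blood cells, leukocytes, endothelium, skeletal and cardiac muscle, smooth muscle and stroma, epithelium and miRNAs abundant in fat cells. The members and lists were chosen with earlier results of these data known. Other settings were DESeq2's size factors (RLE), totals without factors, unfiltered features, only features averaging 10 CPM or more, a block for the animal, a covariate for the letter, letter B alone, omission of each animal, limma 3.58.1 on log2(RPM + 1) or log2(RPM + 0.1), DESeq2 1.42.0, miR-16a and miR-16b summed, 2 groups of 18, sums per animal and class and, for ratios, counts + 0.5 or + 10. Omission of each of the 36 libraries in turn was added after the data were seen. The class test and the F test over depots were also run on simulated counts with known changes. Those counts held no animal effect, so they cannot check tests that treat the libraries of an animal as independent.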

Additional observations from a re-analysis of the deposited data

Results flagged for a closer look

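Within each depot, the highest and lowest library was compared with the other 5, for the 36 combinations of member and depot and the 24 of ratio and depot. In 4 of these the gap between the extreme library and its neighbour, relative to the range of the depot on the log2 scale, exceeded Dixon's critical value for 6 libraries. Chance alone marks about 1 in 20 such groups.

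miR-15a in PCAT1 was the lowest of the pericardial libraries, at 42.2 CPM against 113 to 185 CPM in the other 5. miR-16a in SSAT1 was the highest of the sternal libraries, at 1071 CPM against 297 to 470 CPM. The same library held the most miR-195. miR-16b in IAT1 was the highest of the inguinal libraries, at 12.0 CPM against 5.33 to 7.03 CPM. The log2 ratio of miR-195 over miR-497 in IAT1 was 2.31, against −0.55 to −0.13 in the other inguinal libraries. Of the 4, 3 lay in libraries of animal 1 from sternal or inguinal fat and 1 in its pericardial library.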

How the results depend on the processing

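Libraries of an animal enter the tests as if independent, miR-16b rests on 33 to 335 counts a library, and the smallest exact permutation p over 6 animals is 0.0312. Summing all arms was not run, since each member has 1 entry. Causes of the changes below were not tested.

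Between the classes 2 members were called with the settings of the report, and 2 with RLE factors, a mean of at least 10 CPM, 2 groups of 18 and DESeq2. There was 1 with library totals alone (miR-15a, at −1.003, while both calls of the report were lost), 1 with no filter (miR-195), 1 with the replicate block (miR-497), and 0 with the letter as a covariate, letter B alone, sums per animal and class or limma with either pseudocount. Without each animal it was 0 to 2, and without each library 0 to 2. Where miR-195 lost its call it was at 0.793 (library totals alone), 0.733 (replicate block, pairing depots within an animal), 0.965 (letter as a covariate), 0.914 (letter B alone), 1.135 (sums per animal and class), 0.393 (limma, RPM + 1) and 0.394 (limma, RPM + 0.1), and leaving out animals gave 0.377 to 1.273. miR-497 lost its call at 0.223 (library totals alone), 0.453 (no filter), 0.482 (letter as a covariate), 0.498 (letter B alone), 0.562 (sums per animal and class), 0.256 (limma, RPM + 1) and 0.257 (limma, RPM + 0.1), and leaving out animals gave 0.359 to 0.594.

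In sternal fat 1 member was called in the report's fit, 2 with a 10 CPM minimum mean (miR-16a joined at 0.604), and 0 with no filter, the replicate block, the letter as a covariate, letter B alone or limma. Leaving out animals gave 0 to 1 and leaving out libraries 0 to 2. miR-195 was there at 1.337 (no filter), 0.93 (replicate block), 1.33 (letter as a covariate), 1.333 (letter B alone) and 0.585 (limma), at 0.464 to 1.646 without each animal and at 0.361 to 1.65 without each library. The F test over depots called 0 members, 1 with a mean of at least 10 CPM, 2 with DESeq2, and 0 to 1 without each animal or library. The F test over animals called 0, 2 with DESeq2, 0 to 1 without each animal and 0 to 2 without each library. Depot pairs gave 0 calls of members, 2 with a mean of at least 10 CPM, 1 with the replicate block, 2 with DESeq2, 0 to 1 without each animal and 0 to 2 without each library. The replicate block changed no other call of a member.

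The direction of miR-16a between the classes, −0.002 in the report's fit, turned to 0.019 (RLE factors and DESeq2), 0.024 (mean of at least 10 CPM), 0.117 (letter as a covariate, and letter B alone), 0.014 (2 groups of 18) and 0.11 (sums per animal and class), and lay at −0.145 to 0.08 without each animal. miR-16b turned to 0.174 (letter as a covariate), 0.089 (letter B alone) and, without each animal, lay at −0.333 to 0.1. Of the ratios, miR-15a over miR-15b turned to 0.087 in letter B, miR-195 over miR-497 to −0.204 without animal 1 (up to 0.492 without another) and −0.021 without SSAT1, and miR-16a over miR-16b to −0.017 without animal 6 (up to 0.293 without another).

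Over all features the class comparison called 110, but 71 with the letter as a covariate, 39 in letter B and 22 with sums per animal and class. The F test over depots called 93, but 43 in letter B and 170 in DESeq2, and that over animals 78, but 42 among features averaging 10 CPM or more and 176 in DESeq2. Within subcutaneous fat 4 became 3 to 26 and within visceral fat 13 became 7 to 30. Each depot against the rest ranged over these settings from 10 to 40 (BSAT), 25 to 96 (SSAT), 2 to 21 (IAT), 2 to 126 (OAT), 34 to 85 (PCAT) and 10 to 73 (PRAT), and depot pairs from 100 to 530. Without each animal or library in turn the counts ran from 56 to 129 (classes), 40 to 104 (depots), 39 to 97 (animals), 0 to 12 (within subcutaneous), 6 to 20 (within visceral), 6 to 20 (BSAT), 16 to 80 (SSAT), 2 to 4 (IAT), 1 to 27 (OAT), 30 to 74 (PCAT), 10 to 33 (PRAT) and 92 to 298 (depot pairs).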
